A study of Rattus norvegicus with 12 samples.

Results

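The retina of diabetic rats kept in poor glycemic control throughout was compared with that of diabetic rats whose control was later restored. All of these rats were male Wistar rats made diabetic with streptozotocin. In the Diab group poor control lasted 8 months, and in the Rev group 4 months of poor control were followed by 4 months of good control under insulin. The comparison rests on 8 of the 12 arrays of the series, 4 for Diab and 4 for Rev, chosen by their titles, with RNA of 4 different rats per group. The other 4 arrays hold retina of age-matched, nondiabetic rats (Norm group). They are used here as a reference level, to estimate the spread, and in the normalization and the detection filter. The limma p-values rest on the spread between rats within the 3 groups. Each rat had an array of its own, so this spread includes differences between arrays.

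Diabetic retinopathy is a disease of the small vessels and the neurons of the retina, in which oxidative stress, inflammation and damage to mitochondria take part. Good glycemic control started late does not fully halt it, a phenomenon called metabolic memory, and a direct comparison of Diab with Rev asks which transcripts differ with the last months of control. Long noncoding RNAs (LncRNAs) are transcripts without a long open reading frame that can act on chromatin, transcription, splicing and RNA stability. Some of them are read from ultraconserved regions, which are stretches kept identical between the human, mouse and rat genomes.

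Each array carried 10333 LncRNA probes, 28287 mRNA probes and 50 catalogue probes, which are probes of the array maker outside both classes. A 1-colour array gives each probe an intensity, which can be compared between rats within a probe but not between probes. Values below are log2 of the processed signal after quantile normalization over the 12 arrays, and differences are Diab minus Rev, so that a difference of 1 is a 2-fold higher signal in Diab. The LncRNA and mRNA probes carried names that the tables used here do not pair with genes, and they are given by their probe names. Of the catalogue probes, 30 could be paired with a gene symbol. None of these was among 70 marker genes of retinal and other cell types or among 98 genes of oxidative stress, mitochondria, inflammation, vessels and related lists, so the retinal label was not checked against markers and these lists were not described.

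Before normalization, the arrays of both groups had similar signal with 1 exception. The median signal was 306, 379, 408 and 304 for Diab 1 to 4 and 306, 374, 139.5 and 336 for Rev 1 to 4, so that Rev 3 was the dim array. The mean log2 median signal was 8.44 ± 0.22 (SD, n = 4) in Diab and 8.08 ± 0.65 (SD, n = 4) in Rev, a difference of 0.36 (two-sided exact permutation test, p = 0.429; the smallest p that 4 against 4 can give is 0.0286). Without Rev 3 the difference was 0.04 (exact permutation p = 0.857). Of the LncRNA probes, 91.4% to 94.0% were well above background in the Diab rats and 89.9% to 92.3% in the Rev rats. The Norm arrays were dimmer, with a median signal of 185, 238, 61.3 and 70.9 for Norm 1 to 4. Norm 3 and Norm 4 thus lay below Rev 3. In the Norm rats 74.4% to 87.6% of the LncRNA probes were well above background, so Norm values of dim probes are an uncertain reference. Each group had a scan of its own, with its arrays at slide positions 1 to 4. An effect of the scan, or of a slide that goes with it, therefore cannot be told apart from group.

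After normalization the 8 retinas were not ordered by glycemic control. Over 37207 LncRNA and mRNA probes, the first principal component (50.6% of the variance) set Rev 3, with a score of 134.8, apart from the other 7 arrays, whose scores ran from -40.7 to 2.8. On the second component (17.4%), Diab and Rev rats were mixed. The group means differed by -32.3 on the first component (two-sided exact permutation test, p = 0.714) and by 15.4 on the second (exact permutation p = 0.543). Without Rev 3, the p values of the exact permutation test were 0.629 and 0.343. Rev 3 also had the highest value of the 8 rats for 48.2% of the LncRNA probes and the lowest for 22.8%, and for mRNA probes these shares were 35.9% and 34.4%. The median SD of a LncRNA probe was 0.21 between Diab rats and 0.37 between Rev rats, but 0.17 between the Rev rats without Rev 3. For mRNA probes the same medians were 0.22, 0.37 and 0.17.

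**Figure D1:**
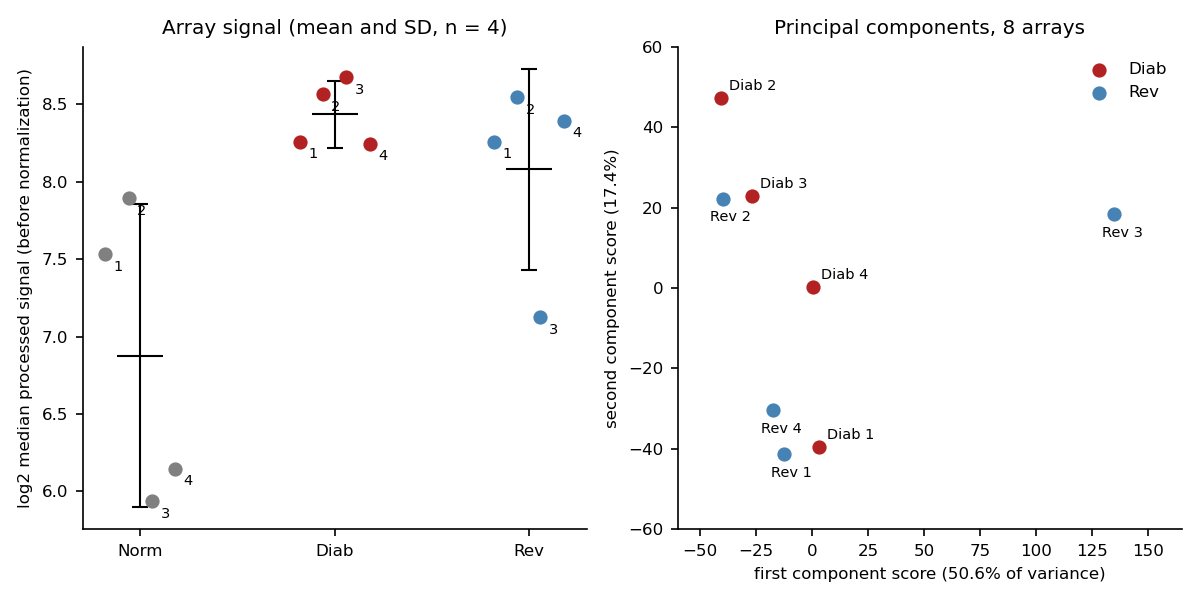
Left, log2 median processed signal before normalization for each rat (numbered points) with the mean and SD of each group of 4 (bars); right, scores of the 4 Diab and 4 Rev arrays on the first and second principal component of the normalized LncRNA and mRNA probes. Rev 3 is the dimmest array of both diabetic groups and stands alone at a first component score of 134.8, while Diab and Rev rats are mixed in the rest of the plane.

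Few transcripts differed by the criterion of the study, a fold change of at least 2 with an unadjusted p under 0.05, and most of those that did were mRNAs higher in Diab. Of 9632 LncRNA probes tested, 6 (0.0623%) met it, 4 higher (0.0415%) and 2 lower (0.0208%) in Diab. This balance changed with the scaling, to 9 higher and 2 lower with the 75th percentile, 5 and 4 with cyclic loess, and 4 and 4 with the 8 arrays normalized alone. Of 27662 mRNA probes tested, 140 (0.506%) met it, 132 higher (0.477%) and 8 lower (0.0289%) in Diab. With the 8 arrays normalized and fitted alone, 103 mRNA probes met it, 96 higher and 7 lower. After Benjamini-Hochberg adjustment within each class, 0 LncRNA probes and 0 mRNA probes had a limma p under 0.05, and the smallest adjusted p was 0.999 for LncRNA and 0.991 for mRNA. Before adjustment, 142 LncRNA probes (1.47%; 80 higher, 62 lower) and 494 mRNA probes (1.79%; 365 higher, 129 lower) had a limma p under 0.05. In this fit both shares lie below 0.05, the share that this threshold passes where no probe differs. That was not so when limma gave each array its own weight. With array weights, 935 LncRNA and 2489 mRNA probes had an unadjusted limma p under 0.05, shares above 0.05, and 0 had an adjusted p under 0.05. An ordinary linear model gave 176 and 483 probes with p under 0.05 and the unpaired test of equal variances 245 and 447, each also with 0 after adjustment. Fewer probes met the criterion with these tests. The ordinary model gave 1 LncRNA and 82 mRNA probes, and the unpaired test 0 and 19. Without Rev 3, 10 LncRNA probes (3 higher, 7 lower) and 121 mRNA probes (109 higher, 12 lower) met the criterion, 93 of the latter among the 140. The median difference over all tested probes was -0.05 for LncRNA and -0.01 for mRNA. Since the retina was measured whole, more cells of a type and more RNA per cell cannot be told apart in any of these differences.

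**Figure D2:**
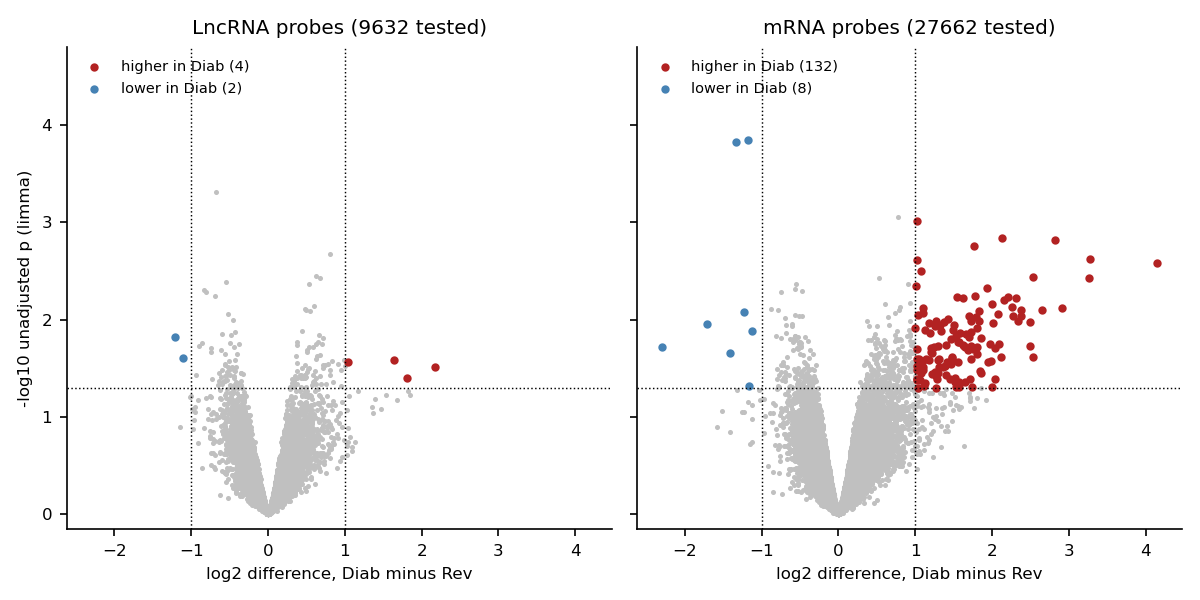
Each point is a probe, with the log2 difference (Diab minus Rev) on the horizontal axis and -log10 of the unadjusted limma p on the vertical axis; dotted lines mark a 2-fold difference and the threshold of 0.05. The LncRNA panel holds 6 probes past both lines and the mRNA panel 140, with 132 of these on the side of higher signal in Diab.

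The number of rats left room for differences that would not pass a test, and the confidence intervals show how much. For the LncRNA probes the 95% interval of the difference lay within 2-fold either way for 8066 probes (83.7%) and within 1.5-fold for 3707 (38.5%), with a median half-width of 0.49. For the mRNA probes the counts were 23659 (85.5%) and 11661 (42.2%), with a median half-width of 0.47. An interval that reached 4-fold or more was found for 84 LncRNA and 350 mRNA probes. For the probes whose interval reached past 2-fold, these numbers of rats did not exclude a difference of that size.

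Most of the 132 mRNA probes higher in Diab were not high in every Diab rat. In 11 of them all measured Diab rats lay above all Rev rats. Their median fold change was 2.91. The median of their signals, each taken relative to its Rev mean, was 0.16 in Diab 1, 2.12 in Diab 2, 2.55 in Diab 3 and 0.86 in Diab 4. In the Rev rats it was -0.12, -0.25, -0.05 and 0.31, and in the Norm rats it lay between -0.57 and -0.23. By these medians Diab 2 and Diab 3 were far above the Rev rats, Diab 4 was in between, and Diab 1 lay within the Rev range. Of the 131 probes measured in every rat, Diab 2 and Diab 3 both exceeded the other Diab rats in 83, and Diab 1 was the lowest Diab rat in 90, Diab 4 in 31, Diab 2 in 9 and Diab 3 in 1. The order of the rats was not the same in all of them, since Diab 1 was the highest Diab rat in 22. In ASRN6AP1B105092953V3, picked after its values were seen, Diab 1 to 4 had 9.97, 7.58, 9.38 and 7.38, against 6.99, 5.43, 6.82 and 7.87 in Rev. Diab 3 was above all Rev rats in 126 of the 132 probes, Diab 2 in 108, Diab 4 in 79 and Diab 1 in 44.

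The same probes were variable between the Diab rats. Their median SD was 1.31 in Diab and 0.63 in Rev, and 101 of the 132 had an SD over 1 between the Diab rats, a spread that 392 of all 27662 mRNA probes had. Of the 132, 121 were well above background on all 8 arrays. The Rev mean lay between the Norm mean and the Diab mean in 99 of the 132. With Diab above Rev by the choice of probes, this count asks only whether the Norm mean lay below the Rev mean. The share over all mRNA probes is not given here, so a return toward normal cannot be read from it. As these probes were picked for high Diab signal, a Norm mean below the Diab mean, found in 131, is partly given by the choice. Single rats moved the count: 284 mRNA probes were past the criterion without Diab 1 and 67 without Diab 3, and without Diab 2 and Diab 3 together, a setting chosen after the data were seen, 58 remained, of which 36 were among the 140.

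**Figure D3:**
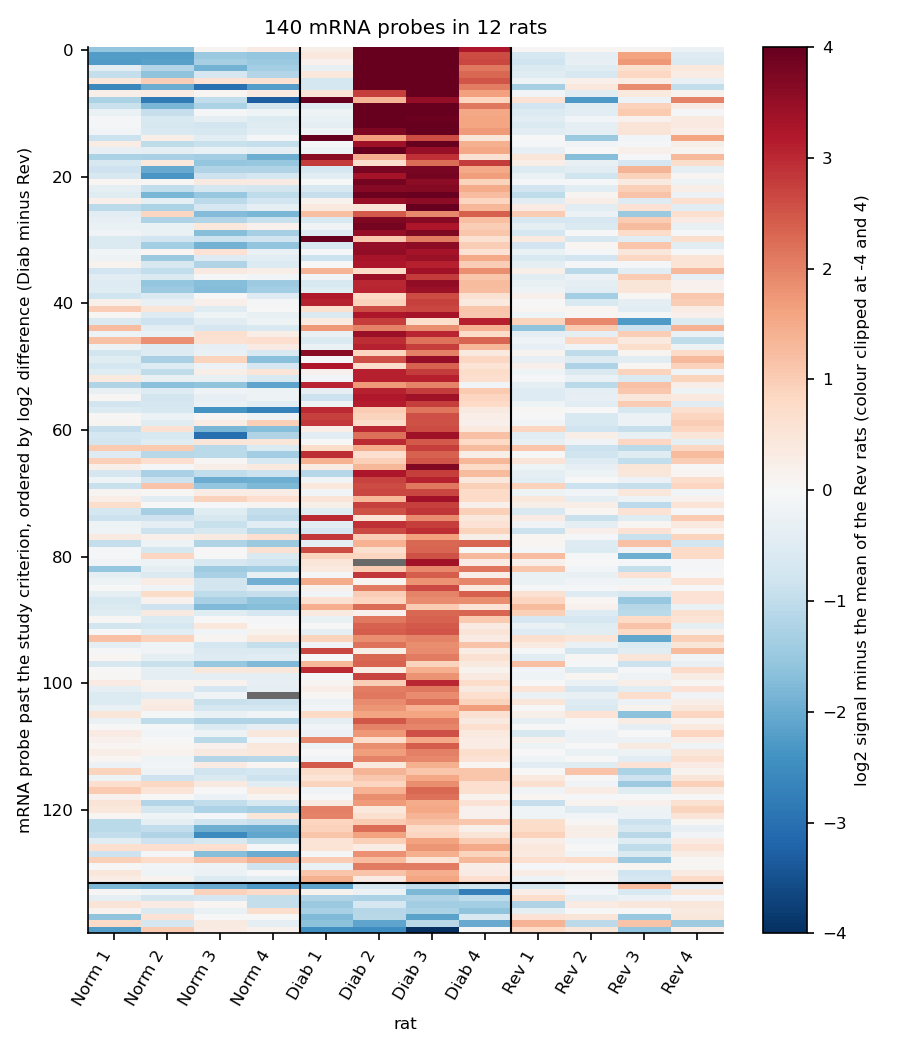
Rows are the 140 mRNA probes past the study criterion, ordered by the log2 difference, with the 132 higher in Diab above the horizontal line and the 8 lower below it; columns are the 12 rats, and colour is the log2 signal minus the mean of the Rev rats, clipped at -4 and 4 (dark grey where the spot was left out). In the upper block the columns of Diab 2 and Diab 3 are the most deeply red, Diab 4 is paler and Diab 1 is the palest of the Diab columns in most rows.

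The 5 largest differences among the 132 followed this order of rats, and they are named here after their values were seen. ASRN6AP1B101014078V3 had a log2 signal of 9.02, 13.74, 13.55 and 11.22 in Diab 1 to 4 and of 7.91, 8.20, 10.22 and 8.09 in Rev 1 to 4. Its difference was 3.28 (95% interval 1.40 to 5.16; limma, unadjusted p = 0.00237, adjusted p = 0.991). Diab 1 lay below Rev 3, so the groups overlapped. ASRN6AP1B106768873V3 had nearly the same profile, with a difference of 3.26 (interval 1.27 to 5.26). ASRN6AP1B100021941V3 had 10.51, 14.41, 14.33 and 12.40 in Diab against 9.60, 9.45, 10.94 and 10.39 in Rev, a difference of 2.82 (interval 1.30 to 4.34). ASRN6AP1B100034015V3 differed by 2.91 (interval 0.92 to 4.90), with 7.88 in Diab 1 and 13.13 in Diab 2. In these 4 probes Rev 3 was the highest Rev rat, and in the whole set it was the highest in 54 probes and the lowest in 42.

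The largest difference of all was a lower bound. ASRN6AP1B100020591V3 was well above background on 3 Diab, 0 Rev and 0 Norm arrays. Its log2 signal was 2.40, 8.37, 9.08 and 5.40 in Diab and 1.92 to 2.28 in Rev. A fold change against signal below background is a bound, computed against the lowest signal that counted as well above background on each dim array. By group means ASRN6AP1B100020591V3 was at least 14.4-fold higher in Diab (limma, adjusted p = 0.991). This bound leaves out the spread between rats. The interval of the log2 difference was 1.74 to 6.56, and Diab 1 lay close to the highest Rev rat. This probe passed the detection filter through Diab alone. ASRN6AP1B100021682V3, likewise above background on 3 Diab and 0 Rev arrays, was at least 2.90-fold higher by group means (interval 0.83 to 4.48). This probe was the single mRNA probe with an adjusted p under 0.05 when Diab 1 was left out (limma, adjusted p = 0.0189). With all rats its adjusted limma p was 0.991. Diab 1 had the lowest signal of the 8 rats, 0.64, against 3.86 to 5.85 in the other Diab rats. The probe passed the detection filter through Diab alone, and the rat left out was its lowest. The p of 0.0189 from limma is therefore no support for a difference.

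Non-overlapping signals were found for 348 mRNA probes (1.26%), 171 (0.618%) with all Diab rats above all Rev rats and 177 (0.64%) below. The share of 1.26% lies below the 0.0286 that would separate where no probe differs, so separation alone is no support for a difference. Of the 348, 14 were past the study criterion, 11 higher and 3 lower. The median size of the difference over the 348 was 0.31, so that most separated the rats by small steps. With well above background signal on all 8 arrays in addition, 10 higher probes and 1 lower probe were left, of which the 8 higher ones with the largest fold change and the lower one were named by rule. The other two, named after their values were seen, were ASRN6AP1B100052796V3 and ASRN6AP1B105686623V3, each with a difference of 1.03. ASRN6AP1B100052796V3 was even across the Diab rats, with 9.51, 9.69, 9.83 and 9.74, against 9.37, 8.72, 7.80 and 8.75 in Rev.

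Among the 8 higher ones with the largest fold change, ASRN6AP1B100094007V3 had 4.51, 6.76, 9.23 and 5.64 in Diab 1 to 4, 3.91, 3.56, 4.39 and 4.15 in Rev 1 to 4, and 4.08 to 4.37 in Norm. It was well above background on 2 Norm arrays. Its difference was 2.53, and the lowest Diab rat exceeded the highest Rev rat by little. ASRN6AP1B100030088V3 was the more even one, with 8.05, 9.29, 8.76 and 9.23 in Diab against 7.86, 6.61, 5.36 and 7.51 in Rev, a difference of 2.00. In Norm it ran from 5.02 to 7.70, and the SD was 0.58 in Diab and 1.11 in Rev. These 2 probes stayed past the criterion in every alternative fit run on them, the fits without 1 rat included, with the difference between 1.64 and 3.22 for ASRN6AP1B100094007V3 and between 1.51 and 2.34 for ASRN6AP1B100030088V3 when single rats were left out. ASRN6AP1B100015523V3 had 8.09, 10.08, 10.15 and 8.59 in Diab against 7.53, 7.55, 7.03 and 7.75 in Rev, a difference of 1.76. Its Norm values, 6.97 to 8.46, overlapped both groups, and it was below the criterion only without both Diab 2 and Diab 3 (0.88).

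ASRN6AP1B106298418V3 had 6.81, 7.63, 9.65 and 7.04 in Diab against 6.70, 5.91, 6.09 and 6.46 in Rev, with a difference of 1.49 that was 0.87 without Diab 3. ASRN6AP1B100405912V3 had 8.33, 11.18 and 8.17 in Diab 1, 3 and 4, the spot of Diab 2 being left out for its flag, so that only 3 Diab rats were separated, against 8.02, 7.82, 7.75 and 7.75 in Rev. Its difference of 1.39 rested on Diab 3 and was 0.42 without it (limma, unadjusted p = 0.0866). The other 3 were ASRN6AP1B100041740V3 (1.32), ASRN6AP1B100009887V3 (1.11) and ASRN6AP1B105421807V3 (1.07). Without Diab 3 they had differences of 0.88, 0.97 and 0.91 and no longer met the fold minimum. ASRN6AP1B105421807V3 also fell short without Rev 3 (0.79), and ASRN6AP1B100009887V3 without Diab 1 (0.84).

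For the 8 mRNA probes lower in Diab, the medians of the group means were 4.59 in Rev, 4.50 in Norm and 2.83 in Diab, and 4 of the probes were well above background on all 8 arrays. These medians do not describe each probe. ASRN6AP1B100032020V3 had means of 3.43 in Rev, 1.45 in Norm and 2.31 in Diab, and ASRN6AP1B100072101V3 had 10.9 in Rev, 11.2 in Norm and 9.69 in Diab. ASRN6AP1B100037370V3 was the only one of them well above background on all 8 arrays with no overlap. It had 4.65, 4.58, 4.65 and 4.85 in Diab against 6.56, 5.46, 5.61 and 5.80 in Rev, and 4.92 to 5.48 in Norm. The Diab rats were close together here and the difference was -1.18 (95% interval -1.65 to -0.70; limma, unadjusted p = 0.000144, adjusted p = 0.991), or -0.94 without Rev 1. ASRN6AP1B100011564V3 was well above background on 0 Diab, 4 Rev and 1 Norm arrays. By group means it was at least 2.11-fold lower in Diab, with 2.95 to 3.66 in the Rev rats (95% interval of the log2 difference -1.87 to -0.79). ASRN6AP1B100018100V3, above background on 0 Diab and 2 Rev arrays, was at least 1.35-fold lower by group means (interval -2.97 to -0.46). ASRN6AP1B100032020V3 did not overlap either (-1.12), and the other 4, ASRN6AP1B100086055V3 (-2.30), ASRN6AP1B100079281V3 (-1.40), ASRN6AP1B100081102V3 (-1.23) and ASRN6AP1B100072101V3 (-1.16), overlapped between the groups. With another background correction (normexp), 0 of the lower probes were past the criterion.

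**Figure D4:**
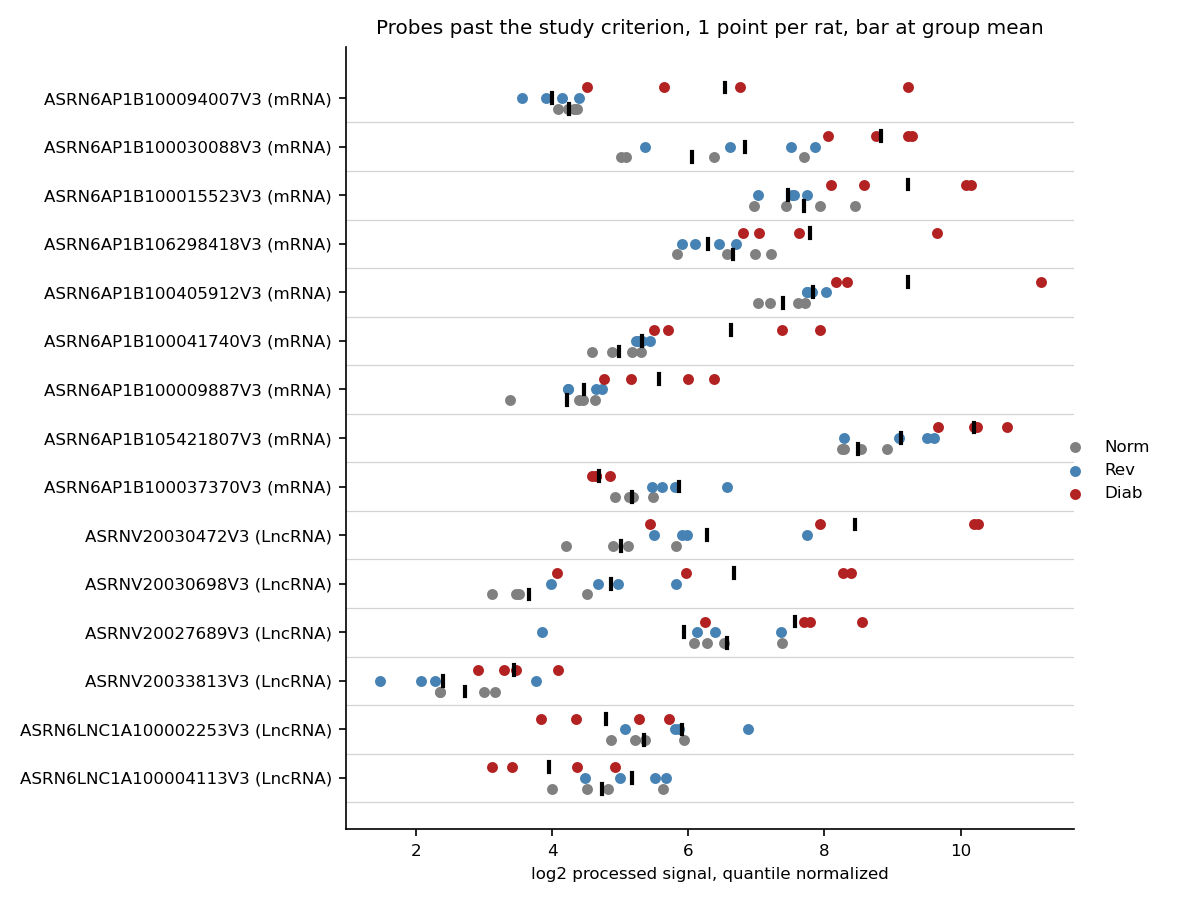
Log2 signal of the 9 mRNA probes named by rule and of the 6 LncRNA probes that met the criterion of the study, 1 point per rat for Diab, Rev and Norm, with a black bar at each group mean. The Diab and Rev points do not overlap in the mRNA rows and overlap in every LncRNA row.

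The 6 LncRNA probes past the criterion had names of both main series of the array, 4 of the 5192 tested ASRNV probes (0.077%) and 2 of the 3567 tested ASRN6LNC1A probes (0.0561%), and in none of them were the Diab and Rev rats apart. ASRNV20030472V3 had 5.43, 10.26, 10.20 and 7.93 in Diab against 5.50, 5.98, 7.74 and 5.91 in Rev, with 4.20 to 5.82 in Norm. Its difference was 2.18 (95% interval 0.24 to 4.12; limma, unadjusted p = 0.0307, adjusted p = 0.999). ASRNV20030698V3 had the same order of rats, 4.08, 8.27, 8.39 and 5.96 in Diab against 3.99, 4.97, 5.81 and 4.67 in Rev, with a difference of 1.81 and with 3.12 to 4.52 in Norm. Both repeat the pattern of the higher mRNA probes, with Diab 2 and Diab 3 high and Diab 1 at the Rev level, and without these 2 rats their differences were 0.41 and 0.16.

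ASRNV20027689V3 had 6.25, 7.79, 8.55 and 7.70 in Diab against 6.40, 6.12, 3.85 and 7.36 in Rev, and 6.08 to 7.37 in Norm. Its difference of 1.64 owed part of its size to Rev 3 and was 0.95 without that rat. ASRNV20033813V3 was dim, well above background on 4 Diab, 1 Rev and 0 Norm arrays, so it passed the detection filter through Diab. It had 2.92, 4.08, 3.30 and 3.47 in Diab against 2.07, 3.77, 1.47 and 2.28 in Rev, 2.35 to 3.17 in Norm, and a difference of 1.05. Of the lower probes, ASRN6LNC1A100004113V3 had 4.93, 3.42, 4.36 and 3.11 in Diab against 5.004, 5.67, 4.48 and 5.51 in Rev, and 4.00 to 5.63 in Norm, a difference of -1.21. ASRN6LNC1A100002253V3 had 5.72, 4.35, 3.83 and 5.28 in Diab against 5.80, 5.08, 6.88 and 5.86 in Rev, and 4.86 to 5.94 in Norm. Its difference was -1.11, and -0.79 without Rev 3.

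The count of LncRNA probes past the criterion changed with each diabetic rat. It was 37 without Diab 1, 12 without Diab 2, 18 without Diab 3, 15 without Diab 4, 16 without Rev 1, 47 without Rev 2, 10 without Rev 3 and 7 without Rev 4. Of the 6 probes, 1 remained without Diab 2 and all 6 without Diab 1. Non-overlapping signals were found for 188 LncRNA probes (1.95%), 109 (1.13%) with Diab above Rev and 79 (0.82%) below. This share too lies below the 0.0286 that would separate where no probe differs, and 0 of these 188 probes were past the study criterion. Their differences had a median size of 0.34. Among those well above background on all 8 arrays, the largest in each direction, picked after their values were seen, were ASRNV20027563V3 and ASRNV20035494V3. The first had 5.82, 6.32, 6.01 and 5.60 in Diab against 5.44, 5.22, 4.57 and 5.28 in Rev (difference 0.81, interval 0.35 to 1.26). The second had 4.27, 3.94, 3.81 and 4.52 against 4.88, 4.97, 4.72 and 5.30 (difference -0.83, interval -1.36 to -0.30). Here the rats within a group were close, and the difference stayed under 2-fold.

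Transcripts of ultraconserved regions were tested with the other LncRNA probes. Their probes bear a uc. number and the strand, and 873 of 959 were tested. Of these, 0 met the study criterion and 11 (1.26%) had an unadjusted limma p under 0.05, 6 higher and 5 lower in Diab, beside 1.47% of all LncRNA probes. The interval lay within 2-fold for 673 (77.1%), beside 83.7% of all LncRNA probes, and the largest difference was 1.36. Both strands were tested for 403 regions, and 0 of them had an unadjusted p under 0.05 on both.

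The smallest p among the ultraconserved probes was that of uc.236-, with 3.95, 4.52, 4.05 and 4.19 in Diab against 3.59, 3.91, 3.48 and 3.73 in Rev. Its difference was 0.50 (limma, unadjusted p = 0.0207, adjusted p = 0.999) and the groups did not overlap. The next 7 by p were uc.8- (0.45), uc.190+ (-0.45), uc.479- (-0.49), uc.29- (0.37), uc.76+ (-0.73), uc.53+ (-0.64) and uc.409- (-0.39). The study names 4 ultraconserved regions among its top upregulated LncRNAs, chosen on these rats and relative to Norm, not between Diab and Rev. Of these regions 7 probes were tested here between Diab and Rev, and 0 had an unadjusted limma p under 0.05. This does not bear on their change against Norm. The brightest of the 3 with differences over 0.5 had 12.47, 13.19, 12.18 and 11.79 in the Diab rats and 12.59, 11.80, 11.10 and 11.38 in the Rev rats. Its difference was 0.69 with an interval of -0.10 to 1.48, so that neither equal levels nor a 2-fold difference was shown. The most scattered one had 7.32, 9.21, 6.94 and 9.16 in Diab and 7.72, 8.53, 4.55 and 6.39 in Rev, and its interval ran from -0.24 to 2.97. The differences of the other 5 lay between -0.13 and 0.71.

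Named genes came only from the catalogue probes, each printed in several spots. The SD over the spots of a probe within an array had a median of 0.05 over these genes, and the SD between rats had a median of 0.30 in Diab and 0.49 in Rev, so that the spread between rats was the larger one. Of 29 genes tested, 0 had an unadjusted limma p under 0.05 between Diab and Rev. Over all 49 catalogue probes tested, with or without a symbol, limma gave 0, the ordinary linear model 1 and limma with array weights 6. The replicate block and leaving out Rev 1, Rev 2 or Rev 4 gave 1 each. With array weights the median difference of the 49 was -0.06, against 0.16 without them. With all rats and without weights, the smallest adjusted limma p was 0.994. The interval lay within 2-fold for 21 of the 29. The differences were above 0 for 23 genes and below for 6, with a median of 0.18, but this balance rested on Rev 3, which was the lowest of the 8 rats for 20 of the 29 genes. Without it, 13 were above and 16 below 0, with a median of -0.04, and the interval lay within 2-fold for 27.

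The gene with the smallest p was Ptk2b, which encodes a tyrosine kinase activated by calcium signals. It had 6.90, 6.72, 6.83 and 6.91 in Diab and 6.74, 6.23, 6.48 and 6.74 in Rev, a difference of 0.29 (interval -0.03 to 0.61; limma, unadjusted p = 0.0696), and of 0.27 without Rev 3. For the next 4, Rev 3 was the low rat. Nat1, an N-acetyltransferase, had 4.55 in Rev 3 and 6.57 to 6.83 in the other Rev rats, and its difference was 0.74, or 0.20 without Rev 3. Mex3c, an RNA-binding ubiquitin ligase, differed by 0.47, and by 0.11 without Rev 3. Pld1, phospholipase D1, differed by 0.55, and by 0.03 without Rev 3. Pdcd10, one of the genes mutated in cerebral cavernous malformation of small vessels, differed by 0.31, and by 0.05 without Rev 3.

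Of the other catalogue genes, Ldha, which encodes the lactate dehydrogenase subunit that makes lactate from pyruvate, had 13.37, 13.57, 13.15 and 13.55 in Diab and 13.41, 13.45, 12.56 and 13.29 in Rev. Its difference was 0.23 (interval -0.23 to 0.70), and 0.03 without Rev 3. Pdk3, a kinase that inhibits pyruvate dehydrogenase, differed by 0.18 (interval -0.32 to 0.67). Both intervals exclude a 2-fold difference.

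Nlrp3, the sensor protein of an inflammasome, had 3.89, 3.71, 4.16 and 3.90 in Diab and 3.98, 3.71, 3.47 and 3.87 in Rev, a difference of 0.16 (interval -0.18 to 0.51). Map2, a microtubule protein of neuronal dendrites, differed by 0.26 (interval -0.26 to 0.77). Dlg4, the postsynaptic scaffold PSD-95, differed by 0.08 (interval -0.38 to 0.55). P2rx2, an ATP-gated ion channel, had the lowest difference of the 29, -0.24 (interval -0.71 to 0.23). For none of these 4 genes did the rats of both groups separate.

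Fgf2, which acts on endothelial cells and on photoreceptor survival, had 8.93, 9.05, 11.82 and 10.44 in Diab and 8.89 to 10.11 in Rev. The Diab rats reached from the low end of the Rev rats to above their highest, and the interval of -0.68 to 1.60 around the difference of 0.46 was the widest of the 29 genes. Gdnf, a neurotrophic factor, differed by -0.003 (interval -0.55 to 0.54). Cdh2, the adhesion protein N-cadherin, differed by 0.27 (interval -0.38 to 0.92), and Enpp1, an ectoenzyme that makes pyrophosphate, by -0.18 (interval -0.94 to 0.58).

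**Figure D5:**
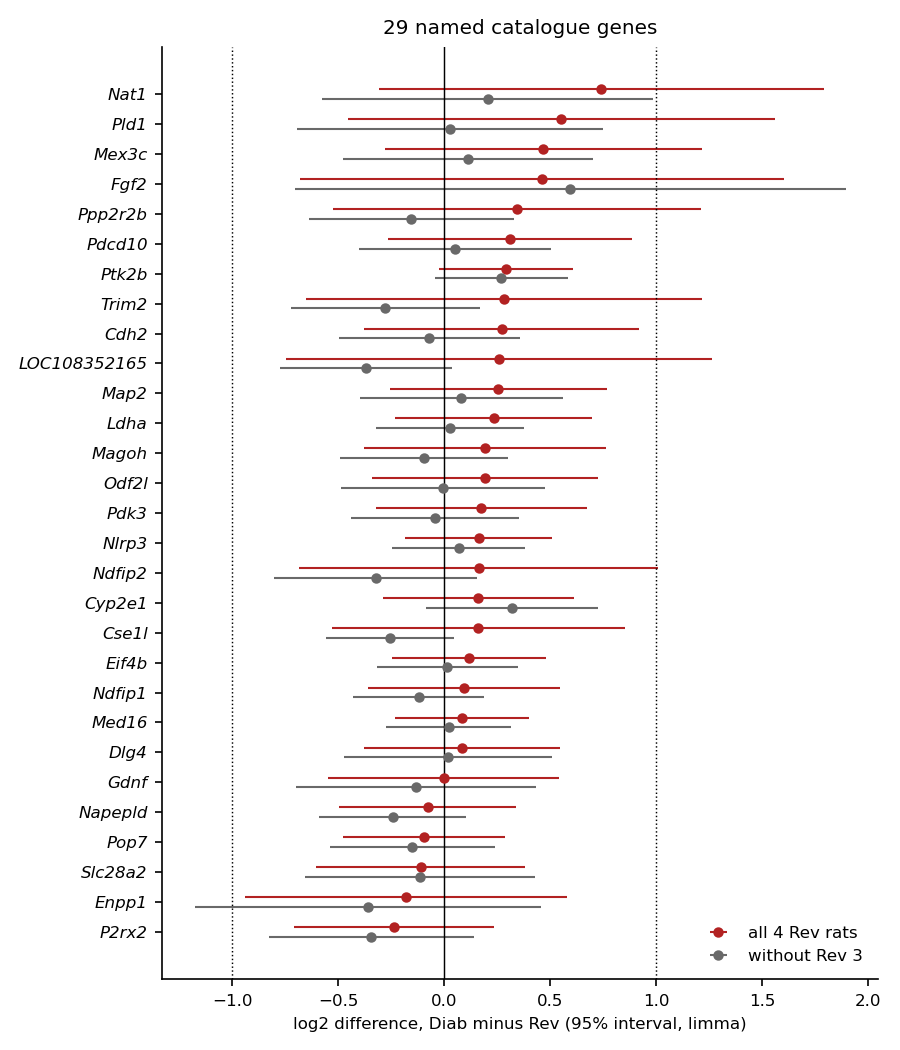
Log2 difference (Diab minus Rev) of the 29 named catalogue genes with its 95% interval from limma, with all 4 Rev rats (red) and without Rev 3 (dark grey); dotted lines mark 2-fold. With all Rev rats 23 genes lie right of 0, and without Rev 3 the genes fall on both sides, 13 above and 16 below.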

How the data were processed

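The authors labeled retinal RNA with Cy3 by random priming, hybridized it to a rat LncRNA array (Arraystar) and quantified the scans in Feature Extraction (Agilent, version 11.0.1.1). Per spot, the deposited files give the processed signal, an intensity with background subtracted within the array and not normalized between arrays, median signal and background intensities, and deposited flags of other kinds coded 0 or 1. Here processed signal was brought to log2, flagged spots were left out, spots of a probe were averaged and the 12 arrays were quantile normalized. Probes well above background on at least 3 of 12 arrays, with at least 2 unflagged arrays per group, were tested with limma (version 3.58.1, R version 4.3.3) in 1 fit over 3 groups with 9 residual degrees of freedom, moderated within the LncRNA and the mRNA class, and for catalogue probes over all probes. Intervals are 95% intervals of that fit. Normexp used an offset of 50 on the median signal. The code was tested on simulated data. Exact tests used scipy (version 1.17.1) under Python (version 3.11.15), tables pandas (version 2.3.3) and data.table (version 1.17.8), and figures matplotlib (version 3.10.9).

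The number of arrays, 4 per group, limits the precision. Replicate numbers follow the place of the array on the slide, and deviations of arrays with the same number correlated at 0.19, 0.64, -0.08 and -0.28, so numbers were not used as pairs.

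The comparison and the lists were chosen with earlier results of these data known. Named by rule were LncRNA probes past the study criterion (at most 8 per direction), mRNA probes past it with no overlap and with signal well above background in all 8 rats (at most 8 per direction), uc. probes with unadjusted p under 0.05 (at most 8) with the 4 regions the study names, and catalogue genes (the 5 smallest p in full). Alternatives were other normalizations, filters, background correction, tests, a covariate for signal, array weights, the replicate block and each array left out.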

Additional observations from a re-analysis of the deposited data

Results flagged for a closer look

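In each group of 4, the highest and the lowest rat were compared with the others by Dixon's ratio, the gap to the nearest other rat over the range of the group, at a level that chance passes in about 1 in 20 groups. Of 123 groups tried, 12 had a rat past it, and in 10 of these it was Rev 3. On the first principal component Rev 3 had a score of 134.8, with the other Rev rats between -39.9 and -12.8. Its signal was the low one for 8 catalogue genes: 4.55 for Nat1 (others 6.57 to 6.83), 9.02 for Pdcd10 (9.98 to 10.1), 10.02 for Ppp2r2b (11.9 to 12.2), 9.38 for Trim2 (11.6 to 11.7), 5.74 for LOC108352165 (8.22 to 8.24), 9.25 for Cse1l (10.84 to 10.98), 11.9 for Ndfip1 (12.7 to 12.9) and 8.93 for Ndfip2 (10.8 to 10.9). For the minus strand of an ultraconserved region that the study names, Rev 3 was the high rat, with 7.13 (others 5.98 to 6.14). The Rev 3 array was the dimmest of the 8, with a median signal of 139.5, and its part in these values was not tested. Outside Rev 3, Diab 1 was high for uc.479-, with 4.05 (others 3.43 to 3.49), and Diab 3 was low for uc.409-, with 4.82 (others 5.39 to 5.47).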

How the results depend on the processing

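The number of LncRNA probes past the study criterion (6) was 11 with scaling to the 75th percentile, 2 with normexp, 12 without a detection filter, 12 with the positive and significant flag, 1 with the ordinary linear model, 0 with the unpaired test of equal variances, 43 with array weights and 59 at a minimum of 1.5-fold. Leaving out 1 array gave 7 to 47, and leaving out Diab 2 and Diab 3, added after the data were seen, gave 10. The number of mRNA probes (140) was 81 with normexp, 82 with the ordinary linear model, 19 with the unpaired test, 319 at 1.5-fold, 58 without Diab 2 and Diab 3, and 67 to 284 with 1 array left out. Array weights gave 108 higher and 50 lower mRNA probes, against 132 and 8. By adjusted p, leaving out 1 array gave 0 to 1 mRNA probes, and the LncRNA count was 0 under every alternative run. Intervals within 1.5-fold in place of 2-fold were found for 3707 LncRNA and 11661 mRNA probes.

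With the replicate block, which shares only a number between rats, 13 LncRNA and 139 mRNA probes were past the criterion and 0 had an adjusted p under 0.05. Of the 15 probes named by the criterion, the block kept all, normexp lost 8, the unpaired test 9, leaving out Diab 3 lost 9 and leaving out Diab 2 and Diab 3 lost 11. No named probe that was called changed sign under any alternative run. The catalogue genes had 0 adjusted calls under all alternatives. The causes of these changes were not tested.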
